A study of Mus musculus with 7 samples.

Results

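Metallothioneins and the genes that move zinc in and out of the cytosol were followed in the hearts of fasted mice. The genes were Mt1, Mt2, Slc30a1, Slc39a14 and Mtf1, 5 of the 12393 genes that the array measures by a probe set of their own. They had been picked on the log2 differences between KLF15-null and WT hearts seen in an earlier look at the same arrays. Every probe set (a group of short probes read out as 1 value) that the platform annotation assigns to exactly 1 of these symbols was taken, which gave 8 of 22626 probe sets, with at least 1 for each gene. Since the KLF15-null against WT difference of these probe sets was known when they were chosen, their values are given as a description. The calls that the model over all probe sets gives for them are counted once, and nothing is read from that count.

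Whole hearts came from KLF15-null mice (3 arrays) and from WT mice (4 arrays), and each array is 1 labelled sample. KLF15 is Krüppel-like factor 15, a transcription factor known for its part in the fasting metabolism of muscle, heart and liver. All mice of both genotypes were labelled as male, of strain C57/BL6, 3 to 4 months old, and all had been fasted for 18 h, so no unfasted heart enters the comparison. The labels name the genotype only as KLF15-null. The deleted part of the gene, the number of founder lines and the relation of the WT to the KLF15-null animals are not stated by the labels. Nothing in the labels says whether an array holds RNA of 1 heart or a pool, so p-values measure the spread between these samples.

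Array medians on the log2 scale were 6.23, 6.23 and 6.22 in KLF15-null hearts, against 6.32, 6.31, 6.31 and 6.33 in WT hearts. All WT medians were the higher ones, so differences on the deposited scale carry this offset, which matters for small ones. The single Klf15 probe set read 6.52, 6.23 and 6.23 in KLF15-null hearts, against 8.68, 8.98, 8.73 and 9.08 in WT hearts. A filter kept 13576 probe sets, those whose mean over the 7 arrays reached the 40th percentile (5.74 on the log2 scale). At an adjusted p under 0.05 in limma, KLF15-null hearts were higher on 26.8% of them and lower on 23.8%, and the genotypes did not overlap on 53.0%. Higher calls made up 52.9% of all calls on the deposited scale and 63.3% with the array medians made equal. Of the 7 cardiomyocyte markers all were bright enough to be tested, with Myh6, the α-myosin heavy chain, at a 7-array mean of 14.1. Of the 7 only Nppa, the atrial natriuretic peptide gene, was past the threshold, higher by 1.71. Probe sets of 1 gene often went apart: a second Myh6 probe set read 3.95, 3.94 and 3.92 in KLF15-null hearts, against 9.86, 9.93, 8.78 and 8.51 in WT hearts, while the bright one differed by 0.21. Second probe sets of Pln (-2.56) and Ryr2 (-1.29, below the filter level) were likewise lower in KLF15-null hearts, against 0.13 and 0.29 on the bright ones. Of the 2748 genes with more than 1 tested probe set 576, or 21.0%, were called higher on 1 and lower on another, so a gene given below by 1 probe set may read otherwise on another. The part of RNA quality or probe position in this was not tested. The labelled sex did not match the arrays of either genotype: Xist, made from the inactive X chromosome of female cells, read at least 8.57 on every array on its brightest probe set, while Y-linked Eif2s3y read at most 3.68 and Kdm5d at most 4.43.

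Metallothioneins are small cysteine-rich proteins that bind zinc and copper, buffer free zinc and scavenge reactive oxygen species. Their genes are induced by zinc, cadmium, glucocorticoids, oxidative stress and inflammatory cytokines. Zinc acts through MTF-1, the metal-responsive transcription factor encoded by Mtf1, which binds metal response elements in the promoters of Mt1, Mt2 and Slc30a1. Slc30a1 codes for ZnT1, the zinc exporter of the plasma membrane, and Slc39a14 for ZIP14, an importer of zinc, manganese and non-transferrin-bound iron that interleukin-6 induces in mouse liver.

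The difference of Mt2 was the largest among the 8 probe sets. Mt2 (probe set 1428942_at) read 13.30, 13.05 and 13.31 log2 units in KLF15-null hearts, against 9.53, 10.67, 10.64 and 11.03 in WT hearts. The 3 KLF15-null arrays lay close together, all above all 4 WT arrays, and the lowest KLF15-null value stood 2.02 above the highest WT value. The means were 13.22 ± 0.15 in KLF15-null (SD, n = 3) and 10.47 ± 0.65 in WT hearts (SD, n = 4), a difference in level of 2.75 (SE 0.30), or 6.73-fold. Among the 13576 tested probe sets 25 had a larger rise.

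Mt1, the neighbouring gene that codes for the other widely expressed metallothionein, was higher on its bright probe set as well. That probe set (1422557_s_at) read 13.62, 13.46 and 13.58 log2 units in KLF15-null hearts, against 11.55, 12.17, 12.24 and 12.24 in WT hearts. The groups did not overlap, and the gap between the lowest KLF15-null and the highest WT value was 1.21. The means were 13.55 ± 0.09 in KLF15-null (SD, n = 3) and 12.05 ± 0.34 in WT hearts (SD, n = 4), a difference of 1.50 (SE 0.17), or 2.84-fold. After cyclic loess normalization, which bends each array's brightness scale towards the others, the difference was 1.08.

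Both readings lay near the top of the scale of the arrays. The brightest probe set of any kind read 14.18 to 14.28 on the KLF15-null arrays and 13.98 to 14.21 on the WT arrays. Mt1 stood at the 99.8th percentile of brightness or above on each KLF15-null array and between the 98.2nd and the 99.1st on the WT arrays. Mt2 stood at the 99.5th to the 99.7th percentile on the KLF15-null arrays and at the 91.9th to the 97.1st on the WT arrays. These percentiles rank probe sets by brightness and not transcripts by number, and whether the detector limits the differences was not tested. The suffix _s_at of the Mt1 probe set marks probes that match several transcripts, so its signal may hold some from Mt2, which was not tested.

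A second Mt1 probe set, 1451612_at, did not show the difference. It read 6.33, 5.17 and 5.42 in KLF15-null hearts, against 5.64, 5.53, 5.53 and 5.29 in WT hearts. Its 7-array mean of 5.56 lay below the filter level, and the KLF15-null values lay on both sides of the WT values.

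**Figure D1:**
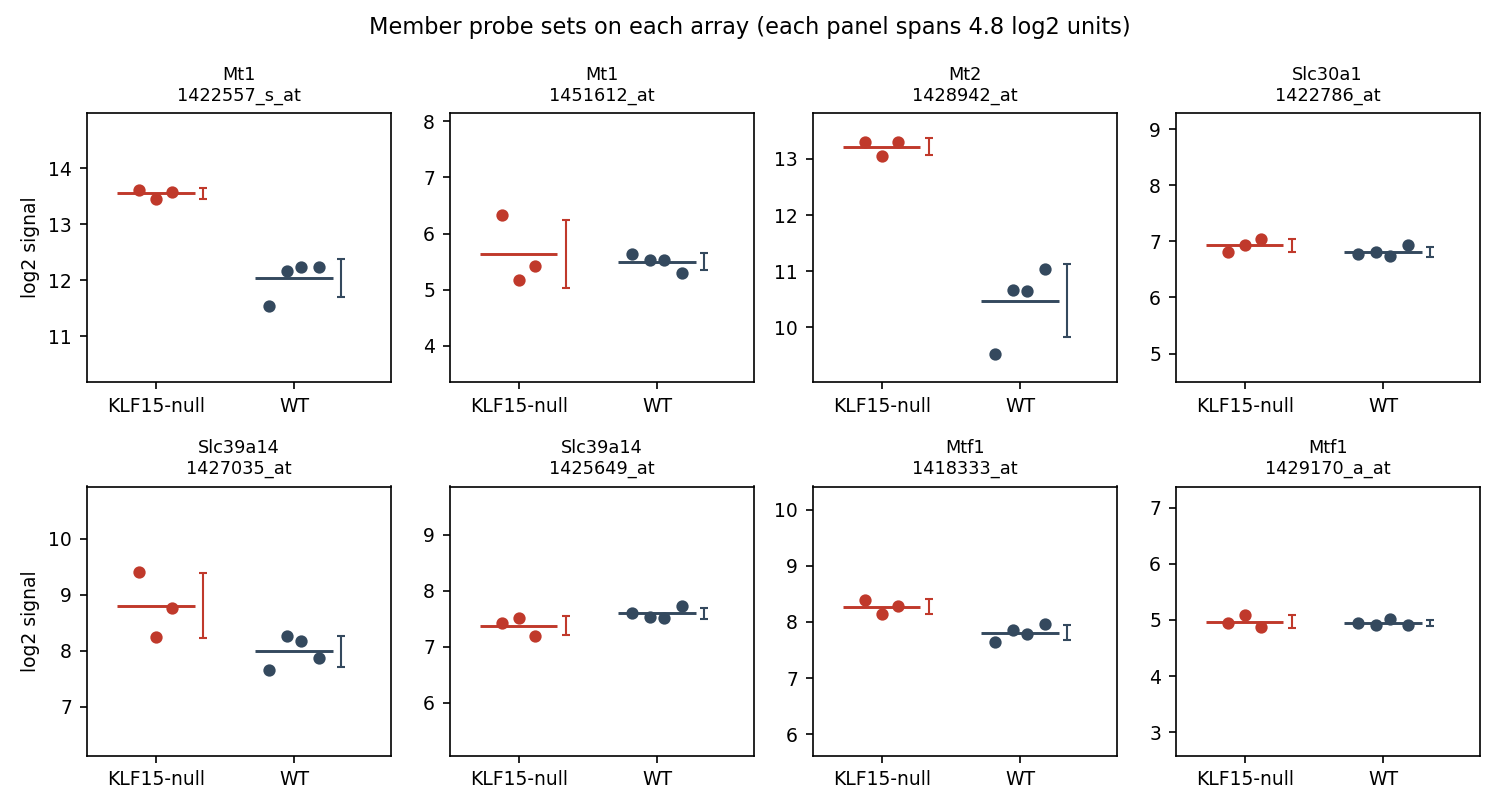
Log2 signal of the 8 member probe sets on each array, KLF15-null (3 points, red) left of WT (4 points, dark); lines are means, bars at the side are SD, and all panels cover the same span of the log2 axis. Mt1 (1422557_s_at), Mt2 and Mtf1 (1418333_at) have no overlap between genotypes, and the other 5 probe sets overlap.

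The genotype difference was accompanied by a spread among WT hearts that came mostly from 1 array, WT 1, for both metallothionein genes. WT 1 had the lowest reading of the WT arrays on both, 1.25 below the mean of the other 3 WT arrays for Mt2 and 0.67 below it for Mt1. Of the 13576 tested probe sets 4, that of Mt2 included, were at least as far below in WT 1 as Mt2, and 62 at least as far below as Mt1. Without WT 1 the differences between genotypes were 2.44 for Mt2 and 1.34 for Mt1. Among KLF15-null arrays the range was 0.26 for Mt2 and 0.16 for Mt1, against 1.50 and 0.70 among WT arrays. Most of that WT range came from WT 1. The other WT arrays read 10.67, 10.64 and 11.03 for Mt2 and 12.17, 12.24 and 12.24 for Mt1. For Mt1 these lay closer together than the KLF15-null readings.

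**Figure D2:**
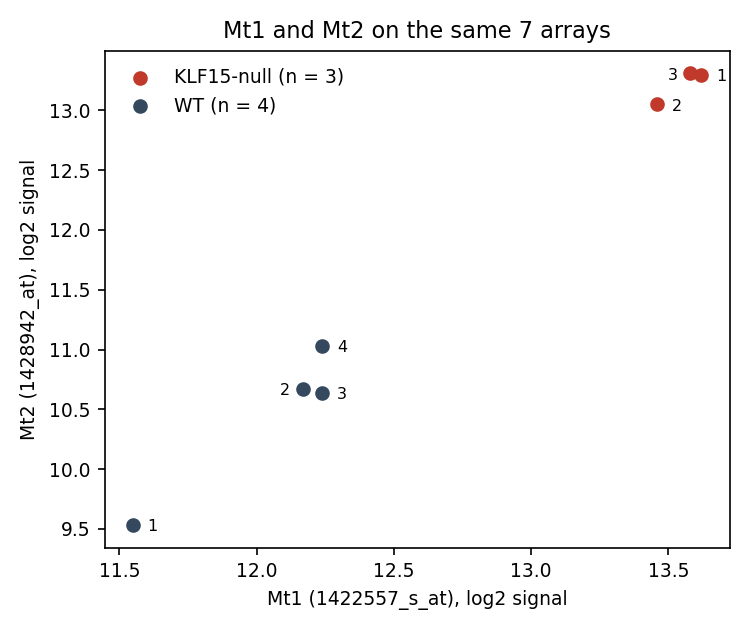
Mt2 (1428942_at) against Mt1 (1422557_s_at), both in log2 signal, with 1 point per array, KLF15-null in red and WT in dark, numbered by replicate. The 3 KLF15-null arrays sit together at the top right and WT 1 sits apart at the lower left with 11.55 for Mt1 and 9.53 for Mt2.

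Mt1 and Mt2 lie next to each other on mouse chromosome 8, in a cluster with Mt3 and Mt4. Mt3, made mainly in brain, read 4.67, 4.73 and 4.79 in KLF15-null hearts, against 4.65, 4.57, 4.67 and 4.61 in WT hearts. Mt4, made in stratified epithelia, read 3.85, 4.14 and 3.98 in KLF15-null hearts, against 3.92, 3.95, 3.98 and 3.98 in WT hearts. Both were below the filter level on every array and were not tested. Nup93, a nuclear pore gene on the other side of the pair, read 7.52, 7.52 and 7.46 in KLF15-null hearts, against 7.29, 7.29, 7.22 and 7.29 in WT hearts, and rose by 0.23 (SE 0.08, adjusted p = 0.0374 in limma). The other 3 of the 6 annotated neighbours had no probe set assigned to them alone.

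The promoters are shown because Mt1, Mt2 and Slc30a1 are textbook targets of MTF-1, while their readings in these hearts differed. Below are the 250 bases before the start in the RefSeq promoter table (build GRCm38.p6, plus strand), for Mt1 at chr8:94178839-94179088, for Mt2 at chr8:94172368-94172617 and for Slc30a1 at chr1:191906531-191906780. Capitals mark the core of the metal response element, spelled TGCACNC or TGCGCNC and searched on both strands.
Mt1: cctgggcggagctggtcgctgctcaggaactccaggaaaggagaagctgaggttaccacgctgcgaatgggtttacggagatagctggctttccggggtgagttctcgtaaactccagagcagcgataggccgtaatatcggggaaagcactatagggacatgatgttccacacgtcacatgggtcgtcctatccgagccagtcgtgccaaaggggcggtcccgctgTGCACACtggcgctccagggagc
Mt2: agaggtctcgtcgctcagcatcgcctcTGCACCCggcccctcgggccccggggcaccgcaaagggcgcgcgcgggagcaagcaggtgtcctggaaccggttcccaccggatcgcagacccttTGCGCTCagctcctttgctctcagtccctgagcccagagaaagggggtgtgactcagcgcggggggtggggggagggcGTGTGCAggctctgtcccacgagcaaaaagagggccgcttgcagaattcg
Slc30a1: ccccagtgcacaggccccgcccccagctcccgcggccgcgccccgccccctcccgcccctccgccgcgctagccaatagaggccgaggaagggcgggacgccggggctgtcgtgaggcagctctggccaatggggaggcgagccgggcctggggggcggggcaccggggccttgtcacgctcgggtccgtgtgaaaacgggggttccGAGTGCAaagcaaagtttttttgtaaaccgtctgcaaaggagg

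Over the table's 300-base windows, which add 50 bases after the start, the core was found 4 times for Mt2, 3 times for Mt1, 2 times for Slc30a1 and 0 times for Mtf1. The Mt1 matches began at bases -23, 3 and 21 from the start and those of Mt2 at -223, -128, -50 and 5. Slc30a1 had its matches at -43 and 31. Of all 32851 windows 25.7% held at least 1 core, 7.11% at least 2, 1.97% at least 3 and 0.517% at least 4. The CACCC box, a letter string that Krüppel-like factors bind, was found 3 times for Mt2, 1 time for Mt1 and in neither of the other windows, where 57.5% of all windows held at least 1 and 9.35% at least 3. The first CACCC match of Mt2 overlaps its first metal response element core. The antioxidant response element core TGACNNNGC, held by 12.4% of windows, had a single match each for Mt2 and Slc30a1, and the STAT string TTCNNNGAA, held by 8.30%, had no match in these windows. Of the 5 genes 4 had a window in the table, and Slc39a14 is named only. A match describes letters and not a bound site. Positions count from the start annotated in that promoter table, and the start used in these hearts was not tested. Elements outside the windows are not counted.

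**Figure D3:**
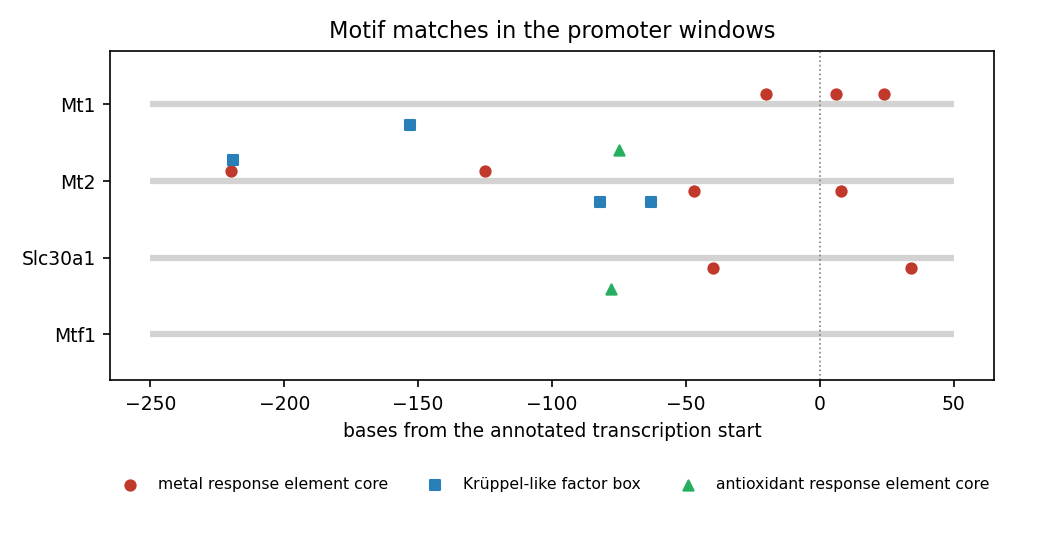
Positions of motif matches, in bases from the annotated transcription start, in the 300-base promoter windows of Mt1, Mt2, Slc30a1 and Mtf1; marks above a line are on the gene's strand and marks below it on the other strand. Mt2 carries 4 metal response element cores and 3 Krüppel-like factor boxes (CACCC), and Mtf1 has no match.

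The exporter gene Slc30a1 did not share the large difference. Its only probe set, 1422786_at, read 6.82, 6.94 and 7.04 in KLF15-null hearts, against 6.77, 6.82, 6.74 and 6.93 in WT hearts. The groups overlapped. The means were 6.93 ± 0.11 in KLF15-null (SD, n = 3) and 6.81 ± 0.09 in WT hearts (SD, n = 4), a difference of 0.12 (SE 0.09). With array weights the difference was 0.19 and past the threshold.

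Mtf1 was slightly higher on its brighter probe set. There (1418333_at) it read 8.39, 8.14 and 8.28 in KLF15-null hearts, against 7.64, 7.86, 7.79 and 7.96 in WT hearts. The groups did not overlap, but only 0.18 separated the lowest KLF15-null from the highest WT value. The difference was 0.46 (SE 0.11), or 1.37-fold. The second probe set, 1429170_a_at, read 4.94, 5.09 and 4.87 in KLF15-null hearts, against 4.94, 4.91, 5.02 and 4.91 in WT hearts. It lay below the filter level on all 7 arrays, with overlapping groups.

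The probe sets of the importer gene Slc39a14 pointed in opposite directions. On 1427035_at the readings were 9.40, 8.24 and 8.76 in KLF15-null hearts, against 7.66, 8.26, 8.17 and 7.88 in WT hearts. KLF15-null 2 lay within the WT range, and the difference of 0.81 (SE 0.25) was 0.51 without KLF15-null 1. On 1425649_at the readings were 7.43, 7.52 and 7.19 in KLF15-null hearts, against 7.61, 7.53, 7.52 and 7.73 in WT hearts, a difference of -0.22 (SE 0.11) with overlapping groups. With the array medians made equal the difference on 1425649_at was -0.13. No map of these probe sets to transcript variants was used here.

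In all, 6 of the 8 probe sets passed the filter, and 4 of them were past the limma threshold and higher, where 26.8% of all tested probe sets were. The genotypes did not overlap on 3 of the 6, where 53.0% of all tested probe sets had no overlap. Since the contrast was known when the genes were chosen, nothing is read from these counts. The call of Slc39a14 on 1427035_at was lost without WT 1 (difference 0.70), without WT 4 (0.77), without KLF15-null 1 (0.51), without KLF15-null 3 (0.83) and with a replicate block (0.77). On 1425649_at a lower call appeared without KLF15-null 2 (-0.29) and with array weights (-0.35). With array weights Slc30a1 was called higher (0.19).

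The remaining zinc transporter genes were taken from the family lists, whatever their values, though the lists were drawn up with results of these data known. Of 24 such genes (9 of the Slc30 exporters, 13 of the Slc39 importers, Mt3 and Mt4) 18 had a probe set of their own and 13 were bright enough to be tested, each by its brightest kept probe set. In KLF15-null hearts 6 rose, 0 fell and 7 were not past the threshold in limma, with 7 higher and 0 lower at an unadjusted p under 0.05. The corresponding shares among all 8404 genes were 27.4% higher and 19.6% lower. The median difference of the 13 was 0.34, against 0.02 over all genes. Slc39a6 passed the filter only through its KLF15-null readings and so had to differ, and without it 5 of 12 rose and the median was 0.28.

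Slc39a6 and Slc39a1, both coding for plasma membrane importers, had the largest differences of the 13. Slc39a6 (ZIP6) read 7.25, 6.89 and 7.03 in KLF15-null hearts, against 5.53, 5.45, 5.54 and 5.77 in WT hearts, a difference of 1.48 (SE 0.11), with no p given because of how it passed the filter. All but 1 of its 4 WT readings lay below the filter level. Its dimmer probe set, below the filter level, went the other way, also without overlap, and read 4.87, 5.19 and 4.97 in KLF15-null hearts, against 5.24, 5.38, 5.20 and 5.31 in WT hearts. Slc39a1 (ZIP1) read 9.12, 9.40 and 9.18 in KLF15-null hearts, against 7.64, 7.89, 8.18 and 8.12 in WT hearts, and rose by 1.27 (SE 0.15, adjusted p = 8.16e-05). For both genes the groups stood well apart on the probe set tested.

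Of the 6 Slc30 genes tested 4 rose. Slc30a5 (ZnT5), which loads zinc into the early secretory pathway, read 7.87, 7.84 and 7.82 in KLF15-null hearts, against 6.95, 7.13, 7.20 and 7.13 in WT hearts, a rise of 0.74 (SE 0.09, adjusted p = 0.000122). Slc30a4 (ZnT4), of endosomal and secretory vesicles, read 7.90, 7.72 and 7.49 in KLF15-null hearts, against 7.02, 7.04, 7.03 and 7.12 in WT hearts, a rise of 0.65 (SE 0.11, adjusted p = 0.000781). Slc30a9 read 9.30, 9.10 and 9.46 in KLF15-null hearts, against 8.78, 8.75, 9.09 and 8.67 in WT hearts, a rise of 0.46 (SE 0.13, adjusted p = 0.0179). In Slc30a9, a mitochondrial zinc transporter gene, the lowest KLF15-null and the highest WT reading were nearly level. Slc30a7 (ZnT7), of the Golgi apparatus, read 6.53, 6.50 and 6.30 in KLF15-null hearts, against 6.02, 6.24, 5.89 and 6.24 in WT hearts, a rise of 0.34 (SE 0.11, adjusted p = 0.0257). Leaving out 1 array ended the call of Slc30a9 in some cases and that of Slc30a7 in others, Slc30a9 without WT 2, WT 4 or KLF15-null 3 (adjusted p = 0.054, 0.054 and 0.0773) and Slc30a7 without WT 1, WT 3, KLF15-null 1 or KLF15-null 2 (adjusted p = 0.0689, 0.0637, 0.0769 and 0.0618). The call of Slc30a7 was also lost with array weights (difference 0.21, adjusted p = 0.0794).

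The 7 zinc transporter genes not past the threshold had differences between -0.14 and 0.43. Slc30a3 stood at -0.07 (SE 0.09) and Slc30a6, the partner of Slc30a5 in the secretory pathway, at -0.14 (SE 0.08). With the array medians made equal Slc30a3 stood at 0.02 and Slc30a6 at -0.05. Slc39a9, Slc39a11 and Slc39a13 stood at -0.02 (SE 0.14), 0.02 (SE 0.09) and 0.00 (SE 0.10). Slc39a3 stood at 0.22 (SE 0.10, adjusted p = 0.0846), and its dimmer probe set, which also passed the filter, at 0.02 (SE 0.07). Slc39a7 (ZIP7), which releases zinc from the endoplasmic reticulum, read 8.07, 7.23 and 8.05 in KLF15-null hearts, against 7.14, 7.47, 7.47 and 7.32 in WT hearts (difference 0.43, SE 0.20, adjusted p = 0.0944). As on the brighter Slc39a14 probe set, KLF15-null 2 read within the WT range and the other KLF15-null arrays above it, and without KLF15-null 2 the difference was 0.71 (adjusted p = 0.00087). With array weights it was 0.66 and past the threshold (adjusted p = 0.000853). Slc30a2, Slc39a4 and Slc39a8, the gene closest in sequence to Slc39a14, stayed below the filter level.

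**Figure D4:**
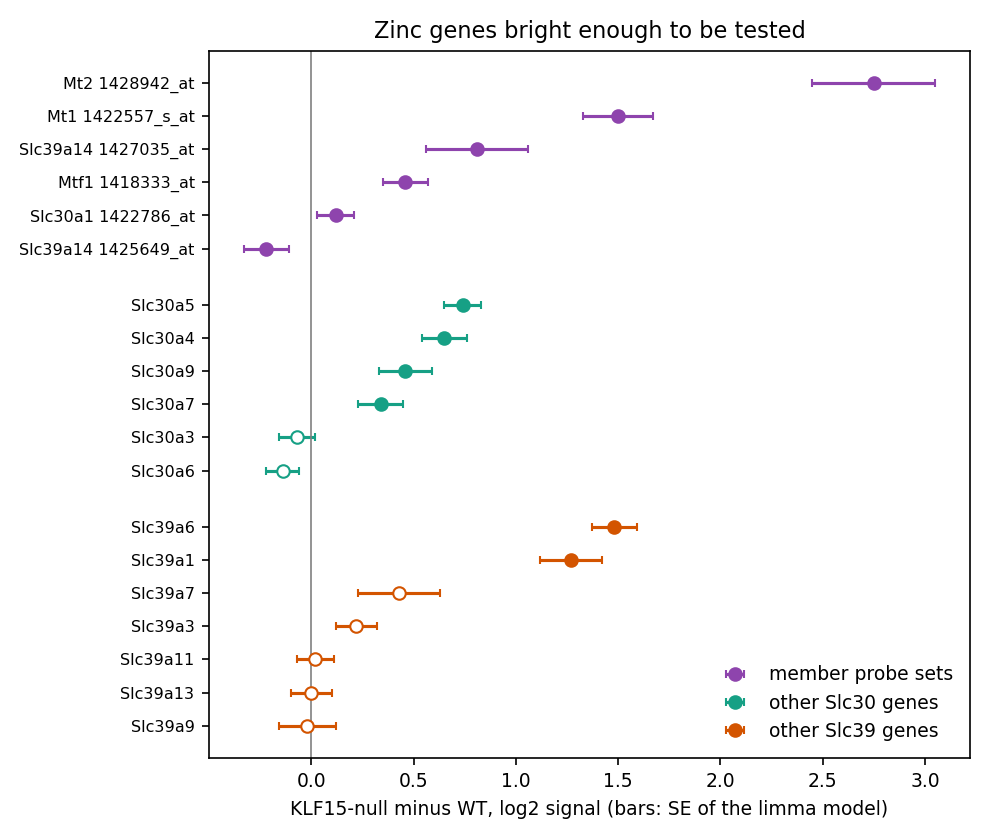
Difference in log2 signal, KLF15-null minus WT, with the SE of the limma model as bars, for the 6 member probe sets that passed the filter (purple, no test shown), 6 other Slc30 genes (green) and 7 other Slc39 genes (orange); in green and orange, filled points are past an adjusted p of 0.05 and open points are not, and Slc39a6 passed the filter only through its KLF15-null readings. The largest differences are those of Mt2 at 2.75, Mt1 at 1.50, Slc39a6 at 1.48 and Slc39a1 at 1.27.

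Genes of other metals, measured because ZIP14 carries iron and metallothioneins bind copper, moved both ways. Of 20 iron and copper genes tested 7 rose, 2 fell and 11 were not past the threshold, with a median difference of 0.06, where 27.4% of all genes rose and 19.6% fell. Cox17, the copper chaperone of cytochrome oxidase, rose by 1.49 (adjusted p = 3.2e-05) on an _s_at probe set, and its second probe set, below the filter level, differed by 0.05. Atp7a, a copper-transporting ATPase, rose by 0.81 (adjusted p = 0.00017) and by 0.71 on a second probe set. Steap4, a metalloreductase, rose by 0.93 (adjusted p = 0.000511), with a second probe set below the filter level at -1.26, and Aco1, the iron regulatory protein, rose by 0.93 (adjusted p = 0.000544), with a second probe set at -0.13. Both falls are named after their values were seen. Fth1, the ferritin heavy chain and the brightest gene of the list, read 13.26, 12.68 and 12.99 in KLF15-null hearts, against 13.68, 13.71, 13.82 and 13.66 in WT hearts, and fell by 0.74 (adjusted p = 0.00123), with a second probe set at 0.20. Tfr2, transferrin receptor 2, fell by 0.36 (adjusted p = 0.0199).

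Regulators known to induce metallothioneins were read beside Mt1 and Mt2. With 27.4% risers and 19.6% fallers among the 8404 genes, no meaning is attached to the call counts of these short regulator lists. Of 7 genes of the glucocorticoid receptor and its targets 2 rose and 3 fell: Fkbp5, a chaperone of the receptor, differed by 1.21, Zbtb16 by 1.65, the clock gene Per1 by -0.95, Tsc22d3 by -0.78 and the receptor gene Nr3c1 by -0.93. Of 7 genes of interleukin-6 family receptors and STAT3 3 rose and 2 fell, with Socs3, the feedback inhibitor, at 4.22, Osmr at 3.08, Il6st at 1.07, Jak1 at -1.22 and Stat3 at -0.68. Of 8 genes of NRF2 and its targets 3 rose (Txnrd1 by 1.18, Srxn1 by 1.01, Hmox1 by 0.82) and 1 fell, Gclm at -0.41. Further probe sets of Fkbp5 (-0.74), Zbtb16 (-0.17), Tsc22d3 (0.47), Il6st (-0.72 and -1.67), Stat3 (0.58), Txnrd1 (-0.76, and -0.21 below the filter level), Srxn1 (-0.02, and -0.03 below the filter level) and Osmr (-0.56, below the filter level) had the opposite sign. Nr3c1 and Stat3 were added to the named genes after their values were seen.

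Some markers of other cell types were past the threshold. For the marker lists here and below, the shares among all genes tested were 27.4% higher and 19.6% lower. Nothing is read from the counts of these short lists. Of 4 neutrophil markers tested 2 rose, S100a8 by 2.19 and S100a9 by 1.41, while the receptor genes Csf3r and Cxcr2 were not past the threshold at -0.05 and -0.15, and Mpo, below the filter level, stood at -0.04. The summed linear signal of the 4 was 575 to 720 in KLF15-null hearts, against 219 to 353 in WT hearts. S100a8 and S100a9 carried most of that sum in KLF15-null hearts. Of 6 macrophage markers 2 rose and 2 fell, with differences of 1.64 for Cd14, 0.90 for Csf1r, -1.24 for C1qa and -0.77 for C1qb, and with sums of 2380 to 3556 in KLF15-null and 1835 to 3026 in WT hearts. Cd68 and Adgre1, not past the threshold, stood at 0.36 and 0.08. The other 2 probe sets of C1qb differed by 0.59 and 1.74, and those of Csf1r by 0.30 and -0.24. Csf1r carried most of the macrophage sums in KLF15-null hearts.

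Of 6 endothelial markers 0 rose and 2 fell, with differences of -2.24 for Pecam1 and -0.77 for Tie1, and with Cdh5, Kdr, Tek and Vwf between -0.14 and 0.46, and their sum was 1323 to 1943 in KLF15-null and 1743 to 2199 in WT hearts. Of 6 fibroblast markers 1 rose and 2 fell, with differences of 0.53 for Pdgfra and of -1.25 and -1.38 for the matrix proteoglycan genes Dcn and Lum. Col1a1, Col3a1 and Tcf21 stood at -0.34, 0.24 and 0.25, not past the threshold. The fibroblast sums were 4132 to 4837 in KLF15-null and 5102 to 9193 in WT hearts. Of 4 smooth muscle markers 1 fell, Myh11 at -1.44, and its second probe set, below the filter level, stood at 0.05. Acta2 stood at 0.44, without overlap of the groups but not past the threshold (adjusted p = 0.0569 in limma). Cnn1 stood at 0.21 and Tagln at -0.25, also not past it. The sums were 3197 to 3538 in KLF15-null and 2111 to 3218 in WT hearts. Acta2, the brightest of the 4 (7-array mean 11.29), carried most of them. The single adipocyte and the single erythroid marker bright enough to be tested were not past the threshold. The part of these cells in the metallothionein readings was not tested, and in whole hearts fewer cells of a type and less RNA per cell cannot be told apart. Of the hepatocyte markers, from the tissue best known for metallothionein, Alb, Apob and Fgb were below the filter level with 7-array means of 5.08, 5.19 and 4.18. Ttr and Cyp2e1 lay just above it with means of 6.27 and 5.87 and differences of 0.05 and -0.02, not past the threshold, and the other 2 Ttr probe sets, below the filter level, differed by 1.25 and 1.43. The sum of the 2 tested was 135 to 139 in KLF15-null and 126 to 164 in WT hearts.

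Genes with the most similar course over the 7 arrays were found by centring each probe set on its WT mean and taking the root mean square (RMS) difference from the member, which matches both the size of the genotype difference and the array-to-array spread. Closest to Mt1 were Lrrc8a, a subunit of the volume-regulated anion channel (RMS 0.13 log2 units), Prelid1 (0.14) and Cotl1 (0.16). Lrrc8a read 9.86, 9.61 and 9.41 in KLF15-null hearts, against 7.72, 8.15, 8.34 and 8.24 in WT hearts. Closest to Mt2 were Cyb561, a cytochrome b561 gene (0.24), Mmp3, the metalloproteinase stromelysin 1 (0.29), and Ccl2, a monocyte chemokine (0.32). Mmp3 read 8.02, 7.48 and 7.75 in KLF15-null hearts, against 4.64, 5.23, 5.23 and 5.11 in WT hearts. All its WT readings lay below the filter level, so it passed only through its KLF15-null readings and had to differ. Ccl2 read 9.26, 8.43 and 9.02 in KLF15-null hearts, against 5.89, 6.28, 6.14 and 6.48 in WT hearts, and Cyb561 read 8.80, 8.37 and 8.86 in KLF15-null hearts, against 5.50, 6.30, 6.00 and 6.22 in WT hearts. WT 1 was the lowest WT array for Lrrc8a, Prelid1, Cotl1, Cyb561, Mmp3 and Ccl2. The genes were chosen for a like course over these arrays. A shared low array, WT 1 here or KLF15-null 2 below, is therefore favoured by the choice, and nothing is read from it. Closest to Slc39a14 on 1427035_at were Camk1 (0.11), Prmt1 (0.12) and Slc10a6 (0.12), each with KLF15-null 2 as the lowest KLF15-null array. Slc10a6 read 8.74, 7.73 and 8.42 in KLF15-null hearts, against 7.16, 7.73, 7.46 and 7.48 in WT hearts. Closest to Mtf1 were Tial1, Slc1a5 and Aprt (0.07 each), and closest to Slc30a1 Psmd4 (0.04), Tmem116 (0.04) and Il13ra1 (0.05).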

How the data were processed

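Total RNA of flash-frozen hearts was extracted with Trizol and labelled with biotin by the one-cycle 3' Affymetrix protocol, per the labels' protocols. The deposited table holds log2 signals per probe set, a scale read from the values; per the submitters' processing notes the software GCOS was used, and how signals were summarized, scaled or filtered is not given in those sources. The largest and smallest array medians were 0.12 apart, under the 0.15 limit set for using the values as deposited. The number of arrays limits the precision.

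Genes were named by the platform annotation, and the Entrez numbers of all 5 genes matched RefSeq (GRCm38.p6). The comparison of 3 KLF15-null with 4 WT arrays used limma (version 3.58.1, R version 4.3.3; linear model with no covariate, intensity trend, two-sided), over the 13576 probe sets at or above the 40th percentile, with Benjamini-Hochberg adjustment over all of them and a threshold of 0.05. A gene outside the 5 was represented by its kept probe set with the highest 7-array mean, and up to 4 called genes with the smallest p were named per list, all zinc transporters being given. The procedure was tested on simulated data. The genes, the lists and the rule for naming were chosen with earlier results of these data known. Alternatives were other filters, array scalings, no intensity trend, array weights, a replicate block, other probe set rules and each array left out.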

Additional observations from a re-analysis of the deposited data

Results flagged for a closer look

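For 21 probe sets (the 8 metallothionein and zinc probe sets described first and the 13 further zinc transporter genes) the 4 WT readings were checked for an array far from the others, and 4 were found. Chance alone gives about 1 in 20 for normally spread readings without ties. For Mt1 (1422557_s_at) WT 1 read 11.55, with the nearest WT array at 12.17. For Slc30a3 WT 1 read 8.0, with the nearest at 7.88, and for Slc39a13 WT 1 read 7.31, with the nearest at 7.42. The other WT readings of Slc39a13 were all tied at 7.42, so that rate does not hold for it. For Slc39a9 WT 3 read 7.38, with the nearest at 7.22. WT 1 was the outlying array in 3 of the 4, low for Mt1 and Slc39a13 and high for Slc30a3. The reading of Mt2 on WT 1, although further from the other WT arrays in log2 units, did not pass the same check.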

How the results depend on the processing

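Mt1 (1422557_s_at), Mt2 and Mtf1 (1418333_at) kept their direction in all 15 alternatives, with differences of 1.08 to 1.60 for Mt1, 2.41 to 2.94 for Mt2 and 0.40 to 0.55 for Mtf1. The lowest Mt1 value, 1.08, came with cyclic loess normalization, and the cause was not tested. With array weights 1 of the 8 probe sets was called lower (Slc39a14 on 1425649_at, -0.35) and 5 were called higher, the added one being Slc30a1 (0.19). Among the 13 further zinc transporter genes, array weights made Slc30a6 called lower (-0.20, adjusted p = 0.0218 in limma). There Slc39a7 was gained (0.66) and Slc30a7 lost (0.21). With each array left out, 3 to 4 of the 8 probe sets were called higher and 0 to 1 lower, and 5 to 6 of the 13 further zinc transporter genes higher. That last count was 4 under a filter at the 60th percentile, which leaves out Slc39a6 and Slc30a7, and 8 after quantile normalization and after median centring, where Slc39a3 (0.30 and 0.32) and Slc39a7 (0.47 and 0.53) were called too. Of the 13 genes 8 kept their side of the threshold in every filter, scaling, model and left-out array setting that tested them. Replicate numbers did not pair the arrays (correlations of deviations -0.11, 0.00 and 0.19). With a replicate block 3 of the 8 probe sets were called higher, Slc39a14 (1427035_at) being lost at 0.77, and 6 of the 13 genes. The table holds no detection calls, so how far background limits the dim readings is unknown.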

Other observations

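The probe sets on which WT 1 stood furthest below the mean of the other WT arrays were looked up after the Mt2 value had been seen. They were Myl7, the atrial myosin light chain (-2.01), Sdc4, a cell surface proteoglycan (-1.88), a probe set without a single gene symbol (-1.88), Mt2 (-1.25) and Mfap5, a microfibril protein gene (-1.18). Whether the chambers of the heart were sampled alike on all arrays was not tested.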
